A study of Mus musculus with 3 samples.

Results

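The chaperonin CCT, also called TRiC, is built from subunits that are encoded by separate genes, and the expression of 7 of these genes, Cct2, Cct3, Cct4, Cct5, Cct6a, Cct7 and Cct8, was examined in 3 populations of mouse CD8+ T cells. The members were the genes whose symbol begins with Cct followed by a digit, among probe sets that the platform annotation pairs with 1 symbol, and they made up 7 of 10191 such genes. The family was singled out because its values were already known to be low on 1 of the arrays, so its values are given as a description. The cells were CXCR3+ innate CD8+, CXCR3- innate CD8+ and naive CD8+ T cells, all sorted from spleen and lymph node suspensions of CXCR3-GFP reporter mice on the C57BL/6 strain, in which a fluorescent protein marks cells that express the chemokine receptor CXCR3. The labels call the mice naive and kept free of pathogens, and the note on RNA extraction calls them CIBER mice. The sort included staining for CD44 and CD8, and the word innate is the submitters' own term for the sorted cells other than naive ones. RNA of each population came from about 3 to 5 mice, was labelled with biotin and was hybridised to 1 Affymetrix array per population, so no difference has a replicate check and no test between populations could be made. The labels do not give the age or sex of the mice, or whether the populations came from the same animals.

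CCT is a pair of stacked rings that encloses newly made proteins and folds them with the use of ATP. Actin and tubulin are its best known clients, and many proteins with WD40 repeats, such as the cell cycle factor Cdc20 and G protein beta subunits, also depend on it. Each ring holds 1 copy of every subunit in a fixed order, so the complex needs all of its subunits, and in T cells it is known for serving the cytoskeleton and growth after activation. Subunit 1 is encoded by Tcp1, whose symbol falls outside the rule and whose values are given beside the others, which brings the complex to 8 genes. The RefSeq gene table held 9 protein-coding genes that match the symbol rule. The remaining pair, Cct6b, a relative of Cct6a expressed in testis, and Cct8l1, had no value among probe sets with 1 symbol. The table used here holds only probe sets that reach a log2 value of 7 on at least 1 array.

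All 7 genes had their lowest value in CXCR3- innate cells, and all 7 were at or below naive cells in CXCR3+ innate cells. That order, with CXCR3- innate lowest and CXCR3+ innate not above naive, was found in 17.5% of all genes. All genes here include those with equal values on all 3 arrays, which cannot show the order, and 34.19% of probe sets were equal. The second part of the order depended on the scaling. In CXCR3+ innate cells 3 members were above naive cells after quantile normalization, and 2 after cyclic loess or centring on the array median. The values below are log2 RMA expression values of 1 array each, and a difference of 1 is a 2-fold difference. Each of the 8 genes had 1 probe set among those with 1 symbol. Levels are compared between arrays for the same gene, not between single genes. Apart from that, a level is set only against the median of its array over all genes. In bulk RNA, fewer cells with a transcript and less transcript per cell cannot be told apart.

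**Figure D1:**
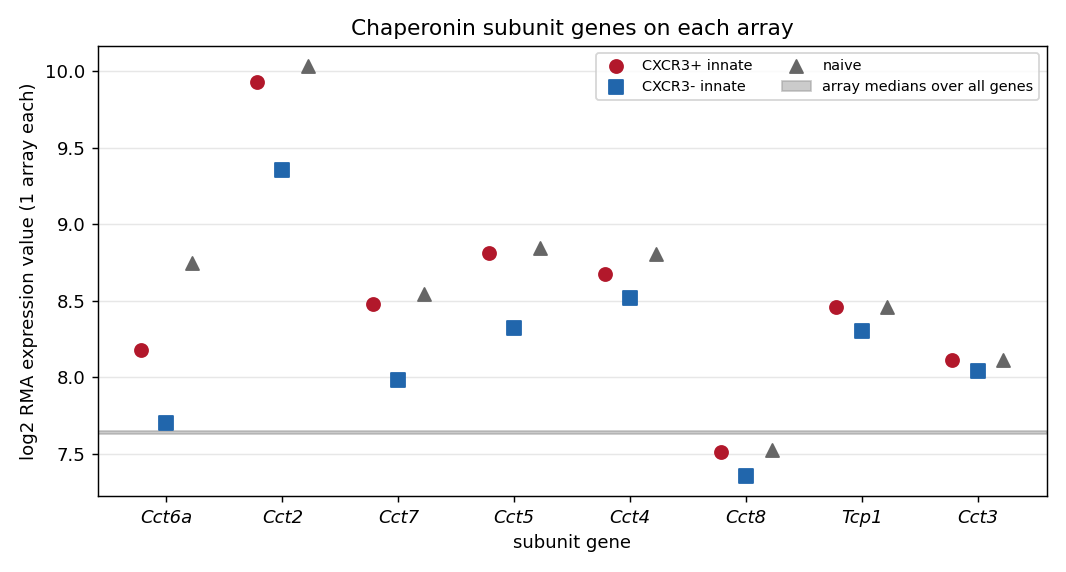
Log2 RMA expression value (y axis) of each chaperonin subunit gene (x axis) on the CXCR3+ innate, CXCR3- innate and naive arrays, 1 point per array and no error bars because no population was replicated; the grey band spans the medians of the 3 arrays over all genes. The CXCR3- innate point is the lowest of the 3 for every gene, from 7.70 against 8.74 in naive cells for Cct6a to 8.04 against 8.11 for Cct3, and levels of different genes come from different probes and are not comparable.

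The first comparison set CXCR3- innate against naive cells. Cct6a showed the widest gap, and Cct2, Cct7 and Cct5 were each lower by about 0.5 to 0.7 on the log2 scale, whereas Cct4 and Cct8 were closer and Cct3 was almost level. The median difference of the 7 genes was -0.52, beside a median of 0.00 over all 10191 genes and of -0.014 over the 5437 genes that reached the median of an array. All 7 were below 0, as were 36.3% of all genes and 52% of the 5437 genes that reached the median of an array.

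The members are taken by their side of the ring. In yeast, the subunits 2, 4, 5 and 7 lie on the side of the ring that binds ATP more tightly. Cct2 encodes subunit 2, which is known to contact actin together with subunit 4, and it read 9.93 on the CXCR3+ innate array, 9.36 on the CXCR3- innate array and 10.03 on the naive array. The CXCR3- innate array stood apart from the other two, with a difference from naive cells of -0.68, which is 1.60-fold. Cct5, in which a human mutation causes a sensory neuropathy, read 8.81 on the CXCR3+ innate array, 8.32 on the CXCR3- innate array and 8.84 on the naive array. Its difference in CXCR3- innate minus naive was -0.52, or 1.43-fold, while the CXCR3+ innate and naive values almost coincided. Cct7 encodes the neighbour of subunit 5 in the ring, and read 8.48 on the CXCR3+ innate array, 7.98 on the CXCR3- innate array and 8.54 on the naive array. This gave -0.56, or 1.47-fold, against naive cells. Cct4, which encodes a subunit that contacts actin, read 8.67 on the CXCR3+ innate array, 8.52 on the CXCR3- innate array and 8.80 on the naive array. Its difference of -0.28, or 1.22-fold, was the smallest on this side of the ring, and its 3 values were more evenly spaced than those of Cct2, Cct5 and Cct7.

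The other side of the ring holds the subunits 1, 3, 6 and 8, which bind ATP less tightly in yeast. Cct6a, the broadly expressed gene of subunit 6, read 8.18 on the CXCR3+ innate array, 7.70 on the CXCR3- innate array and 8.74 on the naive array. Its difference of -1.04 in CXCR3- innate minus naive, a 2.06-fold gap, was as low as or lower than 99.84% of all genes, and the CXCR3+ innate array lay near the midpoint of the other two. Cct8, whose product promotes assembly of the complex in C. elegans, read 7.51 on the CXCR3+ innate array, 7.36 on the CXCR3- innate array and 7.52 on the naive array. The difference of -0.17 was small, and all 3 values were below the median of their array over all genes, which lay between 7.63 and 7.65. Cct3, encoding subunit 3, read 8.11 on the CXCR3+ innate array, 8.04 on the CXCR3- innate array and 8.11 on the naive array, and its difference of -0.067 was the smallest among the 7 genes. Tcp1, named after the mouse t-complex, read 8.46 on the CXCR3+ innate array, 8.30 on the CXCR3- innate array and 8.46 on the naive array, a difference of -0.16. On this side of the ring the 3 genes other than Cct6a differed by 0.17 or less in size. The 4 genes of the tighter side ranged between -0.68 and -0.28, within the span of -1.04 to -0.067 of the 4 genes of the weaker side.

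A rule of size was used to count genes: the 2 values had to differ by at least the stated fold, and the higher one had to reach the median of its array. At 2-fold, Cct6a was the 1 member that was lower in CXCR3- innate than in naive cells, among 23 such genes, which were 0.226% of all genes. At 1.5-fold, 2 members were lower, Cct6a and Cct2, beside 1.6% of all genes. At 1.2-fold, 5 members were lower, with Cct7, Cct5 and Cct4 added, beside 10.4% of all genes. Only the 5437 genes that reached the median of an array could pass, 6 of the 7 members among them. Of the 5437 genes, 23, 163 and 1060 were lower at 2-fold, 1.5-fold and 1.2-fold in that order. No member was higher at any of these folds, whereas 0.0196%, 0.0981% and 1.34% of all genes were higher at 2-fold, 1.5-fold and 1.2-fold in that order. Cct8 and Cct3 passed at none of them. The passage of Cct6a at 2-fold was narrow, since its difference was -0.96 after quantile normalization and -0.99 with an offset of 16 on the linear scale. After quantile normalization Cct2 differed by -0.51 and fell short of 1.5-fold, which left no other member than Cct6a past that fold. Cct4 fell short of 1.2-fold at -0.16 after quantile normalization, at -0.23 after cyclic loess and at -0.25 after centring, which left 4 members past 1.2-fold in each case.

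**Figure D2:**
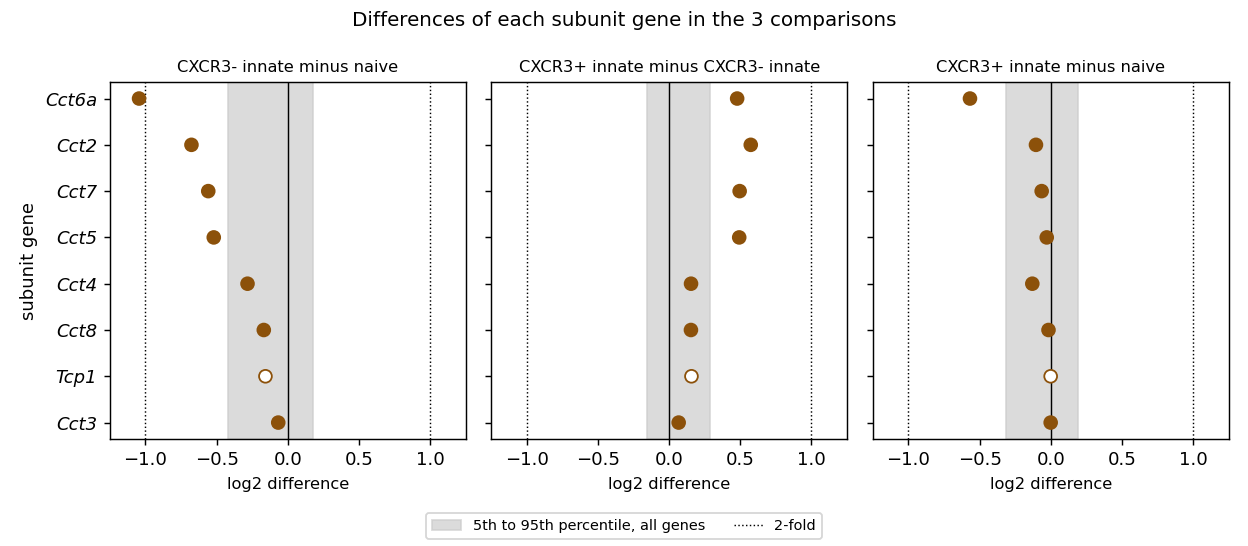
Log2 difference (x axis) of each chaperonin subunit gene (y axis) in the 3 comparisons, with filled points for the 7 genes chosen by symbol and an open point for Tcp1. The grey band spans the 5th to the 95th percentile of all genes and the dotted lines mark 2-fold; in CXCR3- innate minus naive Cct6a, Cct2, Cct7 and Cct5 lie below the band, and in CXCR3+ innate minus CXCR3- innate the same 4 genes lie above it.

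The innate populations were then set against one another, and every member had the higher value in CXCR3+ innate cells. The median difference of CXCR3+ innate minus CXCR3- innate was 0.48, beside 0.00 over all genes, and 28.7% of all genes were above 0. Of the 5437 genes that reached the median of an array, 37.7% were above 0. Cct2 led with 0.57, or 1.49-fold, followed by Cct7 at 0.50, Cct5 at 0.49 and Cct6a at 0.48, which are 1.41-fold, 1.41-fold and 1.39-fold. These 4 genes lay within 0.1 of each other, and each had a larger difference than all but 1.13% to 1.79% of genes. The others were smaller, with Cct4 and Cct8 both at 0.15, Tcp1 at 0.16 and Cct3 at 0.067. No member reached 1.5-fold, where 1% of all genes were higher, and none reached 2-fold, where 0.147% were. At 1.2-fold, 4 members were higher in CXCR3+ innate cells, beside 5.06% of all genes. The genes that passed at 1.2-fold numbered 516, all among the 5437 that reached the median of an array.

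The third comparison set CXCR3+ innate against naive cells, and there most members had close values on both arrays. The median difference was -0.063, with 6 members below 0 and Cct3 equal, beside 34.2% of all genes below 0 and 45% equal. Of the 5437 genes that reached the median of an array, 47.9% were below 0. Cct6a was the exception at -0.57, or 1.48-fold, a difference as low as or lower than 99.1% of genes. Cct4 differed by -0.13, Cct2 by -0.10, Cct7 by -0.063, Cct5 by -0.028 and Cct8 by -0.015. At 1.2-fold, Cct6a was the 1 member lower, beside 6.46% of all genes, and no member was lower at 1.5-fold, beside 0.697%. The genes lower at these folds numbered 658 and 71, all among the 5437 that reached the median of an array. Differences this close to 0 had no fixed sign: 4 members were below 0 and 3 above it after quantile normalization, with Cct3, Cct5 and Cct7 above. After cyclic loess, and likewise after centring on the array median, 5 members were below 0 and 2 above it. The comparisons share arrays, so a low CXCR3- innate value enters both of the first comparisons and these do not support each other.

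The regulatory sequence before each gene was read from RefSeq promoter windows of the mouse assembly GRCm38.p6, since the members differed in the same direction. Windows were found for 7 of the 8 genes, Tcp1 included and Cct4 not, in 9 windows, since Cct2 and Cct5 have more than 1 start site. The 160 bases just before the start are shown for the 2 genes with the largest differences in CXCR3- innate minus naive, Cct6a (chr5:129787196-129787355, plus strand) and Cct2 (chr10:117063853-117064012, minus strand). They are also shown for Cct7 (chr6:85451345-85451504, plus strand), and for Cct3 (chr3:88296975-88297134, plus strand), the gene with the smallest difference. Capitals mark the GC box letters GGGCGG and the CCAAT box letters CCAAT, on either strand.
Cct6a: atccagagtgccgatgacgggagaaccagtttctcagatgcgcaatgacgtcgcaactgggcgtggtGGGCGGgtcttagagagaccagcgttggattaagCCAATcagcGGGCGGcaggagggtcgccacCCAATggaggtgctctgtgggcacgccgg
Cct2: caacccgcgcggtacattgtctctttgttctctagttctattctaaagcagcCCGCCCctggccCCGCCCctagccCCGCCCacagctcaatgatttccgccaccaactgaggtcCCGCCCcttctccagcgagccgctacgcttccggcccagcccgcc
Cct7: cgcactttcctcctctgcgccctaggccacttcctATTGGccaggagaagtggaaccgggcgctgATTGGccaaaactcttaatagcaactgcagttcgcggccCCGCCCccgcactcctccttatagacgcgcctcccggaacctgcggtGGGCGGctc
Cct3: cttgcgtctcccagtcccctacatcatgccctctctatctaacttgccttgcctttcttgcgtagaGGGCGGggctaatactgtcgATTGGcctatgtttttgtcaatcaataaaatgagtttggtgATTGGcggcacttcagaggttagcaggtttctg

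All 4 of these stretches hold GC boxes, with 2 in Cct6a, 4 in Cct2, 2 in Cct7 and 1 in Cct3. The Cct2 stretch belongs to its start site at the higher coordinates. The 250 bases before the other Cct2 start held 1 GC box. CCAAT boxes were found in Cct6a, Cct7 and Cct3, with 2 matches each in the stretches shown, and not in the Cct2 stretch. Over the 250 bases before each start, GC boxes were found in 8 of the 9 windows and in each of the 7 genes, while 32.7% of all 32851 RefSeq windows held one. CCAAT boxes were found in 4 genes, Cct3, Cct6a, Cct7 and Tcp1, beside 33.8% of all windows. The median GC content of the 9 windows was 59.2%, against 52.4% over all windows. Cct3, with nearly equal values on the arrays, and Cct6a, with the widest gap, both carried GC and CCAAT boxes. Whether these letters have a part in the differences was not tested.

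Letters of other factors were rarer. The paired sites of the heat shock element, to which the stress factor Hsf1 binds, were searched as GAANNTTC and TTCNNGAA, which can overlap each other. The first was found in 1 window of Cct2 and the second in 1 window of Cct5, beside 6.7% and 7.2% of all windows. The ETS core CCGGAAG was found in 2 windows, of Cct2 and Cct8, beside 6.9% of all windows. Neither the NRF1 letters GCGCATGC nor the E-box CACGTG, which the transcription factor Myc can bind, was in any of the 9 windows, beside 2.3% and 6% of all windows. All motifs were searched on both strands, and a match is a description of the letters only.

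The partners of the chaperonin were described next, as lists of genes with known roles beside CCT. Prefoldin hands unfolded actin and tubulin to CCT, and phosducin-like proteins assist it. Of 12 genes listed for these cofactors 6 had values, and their median in CXCR3- innate minus naive was -0.13. Below 0 were 4 of them and above it 2. Of all genes 36.3% were below 0 and 21.6% above, and of the 5437 that reached an array median 52% and 18.8%. Vbp1, a prefoldin subunit, read 7.09 on the CXCR3+ innate array, 6.81 on the CXCR3- innate array and 7.41 on the naive array, a difference of -0.60 in CXCR3- innate minus naive. Pdcl3, a phosducin-like protein, differed by -0.24, Pfdn5, another prefoldin subunit, by -0.16 and Uri1, a prefoldin-like protein, by -0.092. No cofactor passed the size rule at any fold used, as the higher value of Vbp1 lay below the median of its array, and the 3 chaperonin-like genes Mkks, Bbs10 and Bbs12 had no values.

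Client genes differed less than the chaperonin itself in their medians. Among actins and actin-related genes, 7 of 13 had values, with a median difference of -0.11 in CXCR3- innate minus naive. Actr3, a subunit of the actin-branching Arp2/3 complex, read 10.76 on the CXCR3+ innate array, 10.42 on the CXCR3- innate array and 11.02 on the naive array, and its difference of -0.61 from naive cells passed at 1.5-fold. Actr1a, the actin-related core of dynactin, differed by -0.44 and the cytoplasmic actin gene Actg1 by -0.13, while Actg2, a smooth muscle actin gene, differed by 0.31 at low values. Tubulins and their folding cofactors had a median of 0.00 over 9 of 23 genes, with no difference beyond 0.14 in size. Tubb5, the beta tubulin of most cells, differed by -0.14, Tbca, a tubulin folding cofactor, by -0.12, Tubb6 by -0.046 and Tubb2a by -0.030. Tbca, Tubb6 and Tubb2a read below the median of every array over all genes. WD40 and other client genes had a median of -0.042 over 13 of 22, with 8 below 0, 5 equal and none above. Those below 0 were 61.5% of the list, beside 36.3% of all genes and 52% of the genes that reached an array median. Strap differed by -0.45, Gnb1, a G protein beta subunit, by -0.41, Tbl1x by -0.25 and Stat3 by -0.18.

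Other chaperone systems had a median closer to 0 in CXCR3- innate minus naive. Of 36 Hsp70, Hsp90, Hsp40 and mitochondrial chaperonin genes 26 had values, with a median of -0.094. Below 0 were 17 of them, 9 were equal and none was above. Those below 0 were 65.4% of the list, beside 36.3% of all genes and 52% of the genes that reached an array median. Hspa9, the mitochondrial Hsp70, read 9.05 on the CXCR3+ innate array, 8.63 on the CXCR3- innate array and 9.24 on the naive array, a difference of -0.61. Dnajc9 differed by -0.60, Dnaja2, an Hsp40 cochaperone, by -0.54 and Hsp90b1, the Hsp90 of the endoplasmic reticulum, by -0.52. At 1.5-fold 2 of the 26 genes were lower, beside 1.6% of all genes, and at 1.2-fold 6 were lower, beside 10.4%. In CXCR3+ innate minus CXCR3- innate the median was 0.014, with 13 genes above 0 and 13 equal. Above 0 in that comparison were 28.7% of all genes and 37.7% of the genes that reached an array median.

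Growth and cell cycle genes were set beside the family because CCT is known to be more abundant in dividing cells. The list of MYC and nucleolar growth genes, 19 of 20 with values, showed a median difference of -0.17 from naive cells in CXCR3- innate cells. Below 0 were 15 of them, 1 was above and 3 were equal. Those below 0 were 78.9% of the list, beside 36.3% of all genes and 52% of the genes that reached an array median. Nop58 and Nop10, parts of small nucleolar ribonucleoproteins, differed by -0.62 and -0.37, the nucleolar protein gene Ncl by -0.52 and Nhp2, a partner of Nop10, by -0.36. In CXCR3+ innate minus CXCR3- innate 15 genes of this list were above 0, with a median of 0.13. These were 78.9% of the list, beside 28.7% of all genes and 37.7% of the genes that reached an array median. Cell cycle genes had a median of 0.00 in all 3 comparisons over 12 of 20 genes, and none passed the size rule at any fold used. In CXCR3- innate minus naive, the mitotic kinase gene Aurkb differed by 0.29, the cyclin gene Ccna2 by 0.15, and the replication genes Pcna and Mcm4 by -0.24 and -0.23. Aurkb and Ccna2 had low values, at 6.90 and 7.03 on the CXCR3- innate array and 6.61 and 6.88 on the naive array.

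**Figure D3:**
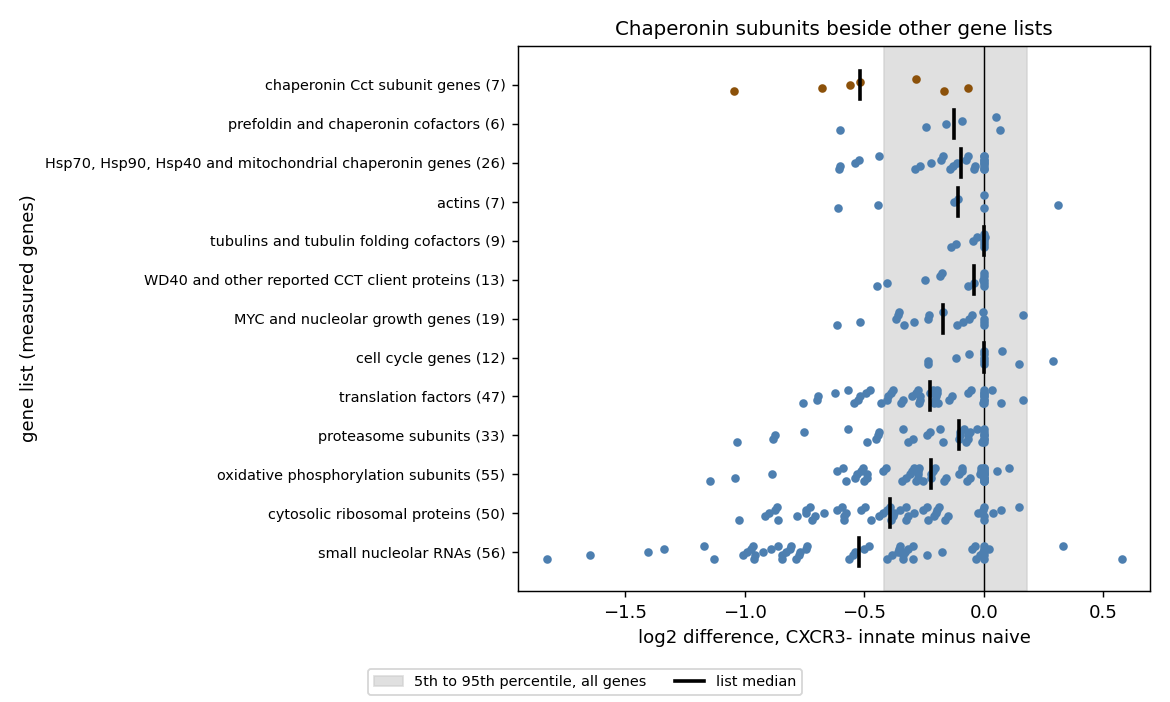
Log2 difference of CXCR3- innate minus naive (x axis) for each measured gene of 13 lists (y axis, number of genes in parentheses), with black bars at the list medians and a grey band from the 5th to the 95th percentile of all genes. The chaperonin subunits have a median of -0.52, small nucleolar RNAs one of -0.52 and cytosolic ribosomal proteins one of -0.39, while tubulins and cell cycle genes have medians of 0.00.

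Other gene families also had low values in CXCR3- innate cells. In CXCR3- innate minus naive, the 56 small nucleolar RNAs reached a median of -0.52, the same to 2 decimals as the Cct genes, and 85.7% were below 0, beside 36.3% of all genes. For the 50 genes of cytosolic ribosomal proteins the median was -0.39, with 88% below 0. The 47 translation factors had -0.22, the 55 oxidative phosphorylation subunits -0.22 and the 33 proteasome subunits -0.10. At 1.5-fold, the shares of genes that were lower can be set side by side as 2 of 7 Cct genes, 24 of 56 small nucleolar RNAs and 14 of 50 ribosomal protein genes, beside 1.6% of all genes. Single genes of these lists came near the difference of Cct6a or went past it, such as Cox7b of cytochrome c oxidase at -1.15, the ATP synthase subunit Atp5md at -1.04, the proteasome subunit Psmb1 at -1.03 and Rps19 at -1.02. The other genes with the widest differences in these lists were Rpl14 at -0.92, Rpl7 at -0.90, Rpl9 at -0.87, Psmb10 at -0.88, Psmb5 at -0.88, Psma1 at -0.75, Ndufv2 at -0.89 and Ndufb9 at -0.61. Among translation factors they were Eif4a2 at -0.75, Eef1b2 at -0.70, Eif3m at -0.69 and Eif3e at -0.62, and among small nucleolar RNAs Snora16a at -1.83, Snord49b at -1.65, Snora69 at -1.41 and Snora34 at -1.34. No difference between the Cct genes and these lists could be tested, and the part that a property of the CXCR3- innate array as a whole has in the values of the Cct genes was not tested.

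Genes outside the family with the most similar pattern were chosen by the distance of their 2 differences from naive cells to the medians of the Cct genes, over 3 arrays and 4616 candidate genes. The 8 nearest were Rplp0, Akr1a1, Sars, Ppan, Asnsd1, Rexo2, Eif3h and Atp5h, at distances of 0.0072 to 0.037 log2 units. Rplp0 encodes a stalk protein of the ribosome, Sars the seryl-tRNA synthetase, Ppan a factor of ribosome assembly, Eif3h a subunit of an initiation factor and Atp5h a subunit of ATP synthase. Akr1a1 encodes an aldehyde reductase and Rexo2 an exonuclease for short RNAs. Rplp0 read 8.48 on the CXCR3+ innate array, 8.04 on the CXCR3- innate array and 8.55 on the naive array, close to the differences of Cct5 and Cct7. The members themselves lay 0.036 to 0.73 log2 units from their own medians, with Cct5 nearest and Cct6a farthest. The 8 genes were picked for their nearness, so their distances are not set against those of the members.

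The labels of the arrays were set against marker genes. Cxcr3, the gene of the sort reporter, read 7.97 on the CXCR3+ innate array, 7.82 on the CXCR3- innate array and 7.57 on the naive array, and Cd44 read 8.30, 7.88 and 7.24 in the same order. Of 6 CD8 T cell markers 5 had values, and their mean was 10.49 on the CXCR3+ innate array, 10.21 on the CXCR3- innate array and 10.74 on the naive array, in which Cd8a contributed 10.14, 9.77 and 10.43 in this order. Cd8b1 contributed 11.31, 11.29 and 11.54. This mean was lowest on the same array as the Cct genes. Not every marker followed it, as the highest of the 5 readings was 11.45, 11.51 and 11.81 in this order. At least 1 marker other than Cd8a and Cd8b1 was thus higher on the CXCR3- innate than on the CXCR3+ innate array. The part of this mean in the values of the Cct genes was not tested. Of 34 markers of other cell types 8 had values, and none of the 7 B cell or 4 red cell markers did. The 3 measured myeloid markers had a mean of 7.57 on the CXCR3+ innate array, 7.69 on the CXCR3- innate array and 7.58 on the naive array. The 2 measured genes listed for natural killer cells were Ncr1 and Nkg7. Their mean was 9.41 on the CXCR3+ innate array, 9.25 on the CXCR3- innate array and 9.21 on the naive array. They went opposite ways on the CXCR3- innate array. In the same order of arrays the lower readings were 7.19, 7.43 and 7.19, and the higher ones 11.62, 11.06 and 11.23. Xbp1, the 1 gene listed for plasma cells that had values, read 8.45 on both innate arrays and 8.79 on the naive array. Foxp3, of regulatory T cells, read 7.30, 7.36 and 7.30 in the order of populations used above, and Xcr1, of dendritic cells, read 7.09, 7.09 and 7.03. Bulk RNA does not tell whether these readings come from other cell types or from the CD8+ T cells themselves. The part of other cell types in the values of the Cct genes was not tested.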

How the data were processed

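Gene expression was measured on 1 Affymetrix array per population. The authors deposited log2 expression values. Per the submitters' processing notes these were computed by RMA with the Affymetrix Expression Console program, whose version is not given in the sources used here. RMA removes background, gives the arrays 1 common distribution and reduces each probe set to 1 value by median polish. The table contained 12417 probe sets, none below 7 on all 3 arrays, so a gene with no value is not at 0. The platform annotation paired 10576 probe sets with 1 symbol, 1108 with several and 733 with none, and only the first kind was used. A gene said to have no value may therefore still share a probe set with several symbols. Log2 values of genes with several probe sets were averaged, which gave 10191 genes. An equal value on all 3 arrays was found in 34.19% of probe sets, so a difference of 0 does not show equal expression.

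Differences of log2 values were taken per gene and counted by the size rule at 2-fold, 1.5-fold and 1.2-fold. With 1 array per population no test, error or p-value was computed, and the number of arrays limits the precision. The members and gene lists were chosen with earlier results of these data known. Named genes were all members and Tcp1, up to 4 members of each other list with the largest absolute difference in CXCR3- innate minus naive, the sort genes, and the 8 genes of most similar pattern among those reaching an array median. Predicted genes, olfactory and vomeronasal receptors, microRNAs and small RNAs were left out of that last choice. Promoters and gene names came from RefSeq tables of GRCm38.p6. The array's build is not given in the sources used here, and protein sequences were not used here. Alternatives were quantile normalization, cyclic loess, centring on the array median, a linear offset of 16, the probe set with the highest mean, other filters and thresholds, the mean over members and the addition of Tcp1. Cyclic loess and quantile normalization were run with limma 3.58.1 in R 4.3.3, and all else in Python 3.11.15 with pandas 2.3.3 and numpy 2.4.6.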

Additional observations from a re-analysis of the deposited data

How the results depend on the processing

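No paired analysis was possible because each population has 1 array. The median of the Cct genes in CXCR3- innate minus naive lay between -0.52 and -0.40 under every alternative run. It was -0.40 after quantile normalization and -0.40 with Tcp1 added. In CXCR3+ innate minus CXCR3- innate it was 0.48, 0.32 with Tcp1 added and 0.34 as a mean. In CXCR3+ innate minus naive it stayed within 0.1 of -0.063. All 7 members remained below 0 in CXCR3- innate minus naive, and above 0 in CXCR3+ innate minus CXCR3- innate, under the 4 other scalings. Each member has 1 probe set among those with 1 symbol, so the choice among these could not move it. Cct6a fell short of 2-fold at -0.96 after quantile normalization and at -0.99 with the linear offset. Cct2 fell short of 1.5-fold at -0.51 after quantile normalization, and Cct4 of 1.2-fold at -0.16, -0.23 and -0.25 after quantile normalization, cyclic loess and centring. The counts of all genes past 2-fold were 25 for CXCR3- innate minus naive, 16 between the innate populations and 24 when CXCR3+ innate cells were set against naive cells. In that order of comparisons they were 173, 110 and 122 at 1.5-fold and 4, 2 and 5 at 3-fold, by the construction of the threshold. For CXCR3- innate minus naive the count was 11 after quantile normalization, with 2 higher and 9 lower against 2 higher and 23 lower, a share of higher genes of 18.2% against 8%. The cause was not tested.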

Other observations

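Pseudogenes that RefSeq names after the chaperonin genes were counted, since probes can bind transcripts of near-identical copies. The count went by symbol and synonym only, and copies under other names were not sought. RefSeq lists 5 pseudogenes named for Cct7, 3 each for Cct3 and Cct6a, 2 each for Cct8 and Tcp1, 1 for Cct4 and none for Cct2 and Cct5. None of these pseudogenes had a value of its own in the table. Cct2 and Cct5, with no pseudogene named after them, differed by -0.68 and -0.52 in CXCR3- innate minus naive. Whether the probe set of any of these genes, Cct2 and Cct5 included, binds a copy was not tested.

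Exactly equal values also fell unevenly over pairs of arrays. CXCR3+ innate and naive were equal, with CXCR3- innate apart, in 10.87% of probe sets, Cct3 and Tcp1 among them. CXCR3+ innate and CXCR3- innate were equal, with naive apart, in 13.84%, and CXCR3- innate and naive, with CXCR3+ innate apart, in 7.8%.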
